A study of Homo sapiens with 2 samples.

Results

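The peroxiredoxins and the methionine sulfoxide reductases are 2 enzyme families that deal with peroxides and with the damage peroxides do to protein. All 10 human members were taken by gene symbol from a table of 30856 gene rows, the 6 peroxiredoxins PRDX1 to PRDX6 and the 4 reductases MSRA, MSRB1, MSRB2 and MSRB3. The tested cells were Ara-C resistant THP1 cells, selected stepwise with cytarabine (Ara-C, a cytidine analogue used against acute myeloid leukaemia) from 5 nM up to 10 µM until they doubled as fast as untreated cells. They were set against untreated parental THP1 cells, a human monocytic leukaemia line, and each state was 1 poly(A) RNA library. Whether the resistant line is 1 clone or a mixed population, and whether the drug was present at harvest, is not given in the sources used here.

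A peroxiredoxin reduces hydrogen peroxide with a reactive cysteine, the peroxidatic cysteine, and thioredoxin then returns the enzyme to its reduced state. Methionine sulfoxide reductases repair oxidised methionine in proteins, MSRA acting on the S form of the sulfoxide and the MSRB enzymes on the R form, also with electrons from thioredoxin. In acute myeloid leukaemia, PRDX2 has been described as a gene silenced through its chromatin, and in monocytic cells these enzymes work beside an oxidase that makes superoxide.

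PRDX2 was much lower and MSRB3 much higher in the resistant cells, while the other 8 genes were close to their parental levels. PRDX2, a peroxiredoxin of the cytosol, was at 5.88 FPKM in resistant cells, against 28.07 FPKM in parental cells, where FPKM is fragments per kilobase of transcript, scaled to the size of the library. MSRB3, a reductase targeted to the endoplasmic reticulum or to mitochondria, was at 7.14 FPKM in resistant cells, against 0.51 FPKM in parental cells. Each state is represented by a single library, so nothing could be tested between them, and each difference describes 2 libraries with no replicate check. The 2 libraries held 58285463 counts (resistant) and 57434972 counts (parental), and mitochondrial transcripts took 5.92% of the resistant and 5.96% of the parental counts. In RNA from bulk cells, fewer cells that express a gene and less RNA per cell cannot be told apart.

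Folds are ratios of read counts relative to the library total, resistant over parental, with an exact 95% interval (Clopper-Pearson, from the resistant share of the counts of the gene) that covers counting error only. Log2 ratios are log2((FPKM resistant + 1)/(FPKM parental + 1)), and a gene is called at least 2-fold apart where this is at least 1 or at most -1. All 10 genes reached 1 FPKM in at least 1 library, and of them MSRB3 was called higher and PRDX2 lower. Among all 11388 expressed genes, 0.632% were called higher and 1.23% lower by the same rule, 1.86% in all. The genes were selected on the FPKM ratios of PRDX2 and MSRB3 in this same comparison, which were known when the families were picked, so their counts are a description. The median log2 ratio of the 10 genes was -0.04, against -0.02 for all expressed genes. Of the 10 genes, 8 lay below 0, against 6065 of the 11388 expressed genes. MSRA (-0.01) and MSRB1 (-0.02) lay next to the median of all expressed genes.

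**Figure D1:**
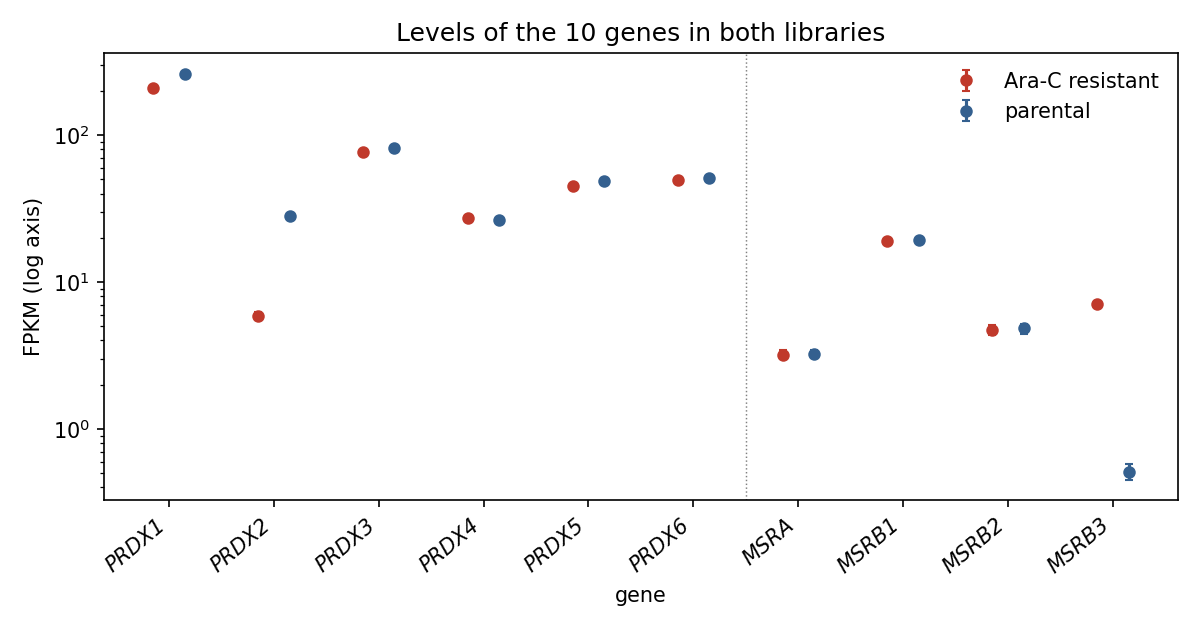
FPKM of the 10 genes (log axis) in the Ara-C resistant library (red, left of each pair) and the parental library (blue, right), with 1 library each; bars are exact 95% counting intervals, often smaller than the point. The points of PRDX2 (5.88 FPKM in resistant, 28.07 FPKM in parental cells) and MSRB3 (7.14 FPKM in resistant, 0.51 FPKM in parental cells) lie far apart, and those of the other 8 genes lie close together.

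Around the peroxidatic cysteine, the coding sequence of PRDX2 was closer to those of PRDX1, PRDX3 and PRDX4 than to those of PRDX5 and PRDX6. The stretch of each gene around that codon is shown, 5′ to 3′ on the coding strand from GENCODE 29 transcripts, with the cysteine codon in capitals, because it shows PRDX2 beside the relatives whose reads it could share.
PRDX1: taccctcttgacttcacctttgtgTGCccc
PRDX2: taccctctggacttcacttttgtgTGCccc
PRDX3: tatcctttggatttcacctttgtgTGTcct
PRDX4: tacccacttgatttcacatttgtgTGTcca
PRDX5: gttcctggggccttcacccctggaTGTtcc
PRDX6: caccctcgggactttaccccagtgTGCacc
The codon is number 52 in PRDX1, 51 in PRDX2, 108 in PRDX3, 124 in PRDX4, 100 in PRDX5 and 47 in PRDX6, counted from the start codon. Of the 30 bases shown, PRDX2 had 28 in common with PRDX1, 24 each with PRDX3 and PRDX4, 22 with PRDX6 and 17 with PRDX5. Over the whole coding sequence, PRDX2 matched PRDX1 at 73.0% of aligned bases, PRDX4 at 70.7% and PRDX3 at 66.3%. The longest run of bases that a PRDX2 transcript shares with a PRDX1 transcript is 18, against reads of 150 bases. Over all 45 pairs of the 10 genes the longest shared run was 24 bases, between PRDX1 and MSRB3. Reads that match these genes exactly over their length can therefore be assigned to 1 of them.

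PRDX2, with PRDX1 a typical 2-Cys peroxiredoxin of the cytosol and nucleus and one of the most abundant proteins of red blood cells, lies on chromosome 19 from 12796820 to 12801800 on the minus strand (GRCh38). It had 813 counts in resistant cells, against 3810 in parental cells. The fold was 0.210 (95% interval 0.195 to 0.227), so PRDX2 was 4.76-fold lower in resistant cells, with a log2 ratio of -2.08. Its ratio was the 9th lowest of the 11388 expressed genes. By level, PRDX2 ranked 5744 among the expressed genes in the resistant library and 1317 in the parental library.

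Few counts were measured for related or overlapping genes, so adding them could hardly move the ratio of PRDX2. The annotation holds 4 processed pseudogenes of PRDX2, of which the longest exact run shared with a PRDX2 transcript was 76 bases, in PRDX2P4. PRDX2P3, the 1 that was measured, had 6 counts in each library, and adding it left the log2 ratio of counts at -2.24, against -2.25 without it. A gene on the opposite strand with a clone-based name, AC018761, had 5 counts in resistant cells, against 0 in parental cells, and adding it also gave -2.24. The protocol keeps the strand, although the strand setting used for counting is not given in the sources used here.

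The start of PRDX2 was rich in CpG. Of its RefSeq window of 300 bases (250 before to 50 after the start), 73.7% was G or C, and it held 46 CpG dinucleotides, against a median of 14 over 35116 human promoter windows and more than 97.1% of them held. The bases of that window that lie upstream of every GENCODE 29 start of PRDX2 are shown for the gene described as silenced, chr19:12801860-12802050 (GRCh38, minus strand, 191 bases, from RefSeq), with CpG in capitals.
PRDX2: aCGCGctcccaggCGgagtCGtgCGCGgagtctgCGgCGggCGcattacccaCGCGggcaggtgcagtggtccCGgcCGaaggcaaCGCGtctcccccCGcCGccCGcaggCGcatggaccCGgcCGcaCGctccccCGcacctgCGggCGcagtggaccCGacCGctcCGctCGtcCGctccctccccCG
This stretch held 31 CpG dinucleotides. DNA methylation was not measured here, so the values say what the sequence holds and nothing of its state in these cells.

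The genes on either side of PRDX2 differed far less between the 2 libraries than PRDX2 did. Its nearest expressed neighbours were JUNB, a subunit of the transcription factor AP-1, at 10.89 FPKM in resistant cells, against 13.98 FPKM in parental cells, and RNASEH2A, the catalytic subunit of ribonuclease H2, at 17.96 (resistant) and 19.98 FPKM (parental). The 5 nearest expressed genes on each side span 245 kb, and their log2 ratios ran from -0.53 to 0.05. Their median was -0.15, against -0.02 for all expressed genes. The lowest was DNASE2, at 6.17 FPKM in resistant cells, against 9.32 FPKM in parental cells (fold 0.663, 0.612 to 0.719). None of these 10 genes was at least 2-fold apart.

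**Figure D2:**
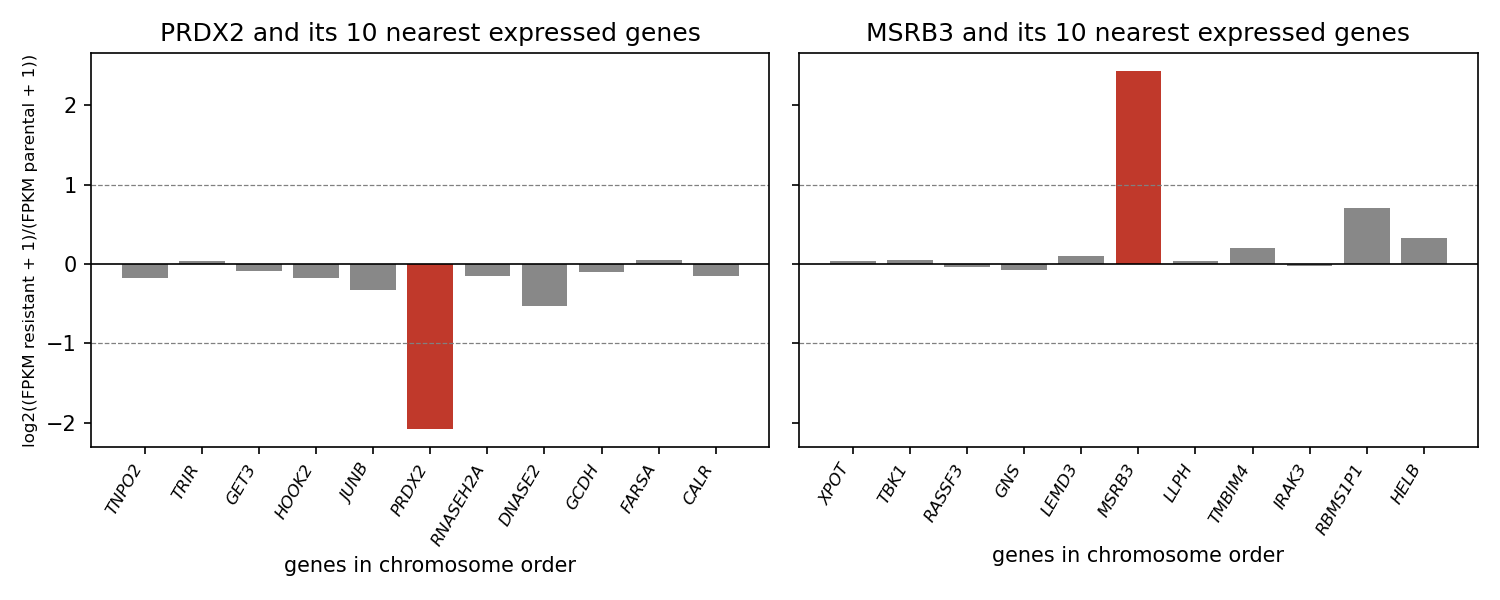
Log2 ratio of FPKM + 1, resistant over parental, of PRDX2 and MSRB3 (red) and of the 5 nearest expressed genes on each side (grey) in chromosome order; 1 library each, dashed lines at -1 and 1. PRDX2 at -2.08 and MSRB3 at 2.43 stand outside the range of their neighbours, which run from -0.53 to 0.05 and from -0.07 to 0.71.

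PRDX1 was the most abundant peroxiredoxin in both libraries. PRDX1 (chromosome 1) was at 209.56 FPKM in resistant cells, against 260.39 FPKM in parental cells, from 21380 (resistant) and 26110 counts (parental). It was thus 19.3% lower in resistant cells (fold 0.807, interval 0.792 to 0.822), the largest relative difference among the 10 genes after MSRB3 and PRDX2, and its log2 ratio of -0.31 was further from 0 than that of 76.3% of the expressed genes. MMACHC, a vitamin B12 processing gene that overlaps PRDX1 on the opposite strand, had 2320 counts in resistant and 2149 in parental cells.

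The peroxiredoxins of the organelles differed little. PRDX3, the peroxiredoxin of the mitochondrial matrix (chromosome 10), was at 76.36 FPKM in resistant cells, against 81.78 FPKM in parental cells (fold 0.936, interval 0.917 to 0.956). PRDX4, which uses peroxide in the lumen of the endoplasmic reticulum to help form disulfide bonds (chromosome X), was at 27.26 FPKM in resistant cells, against 26.25 FPKM in parental cells, and its interval held equal levels (fold 1.04, 0.992 to 1.09). PRDX5, an atypical 2-Cys enzyme found in mitochondria, peroxisomes and cytosol (chromosome 11), was at 44.96 FPKM in resistant cells, against 49.08 FPKM in parental cells (fold 0.919, 0.871 to 0.969). PRDX6, the 1-Cys member, which takes its electrons from glutathione with the help of GSTP1 and also has phospholipase activity (chromosome 1), was at 49.15 FPKM in resistant cells, against 51.34 FPKM in parental cells (fold 0.960, 0.930 to 0.990).

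Apart from PRDX2, the peroxiredoxins thus lay between 0.807 and 1.04 of the parental level. Counting error is small at this depth, and 72.8% of all expressed genes had an interval that leaves out equal levels. For the 10 genes the interval lay below 1 for 5, against 39.1% of all expressed genes, and above 1 for 1, which was MSRB3, against 33.7%. The 5 below 1 were all peroxiredoxins, that is PRDX2, by which the families were chosen, and 4 of the other 5. Of these, the interval of PRDX6 ended at 0.990, close to 1, and the intervals were not recomputed under another scaling. None of the 6 peroxiredoxins had an interval above 1, and for the 3 reductases other than MSRB3 it held 1. These counts describe 1 library of each state, in which differences between libraries of the same state were not measured.

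**Figure D3:**
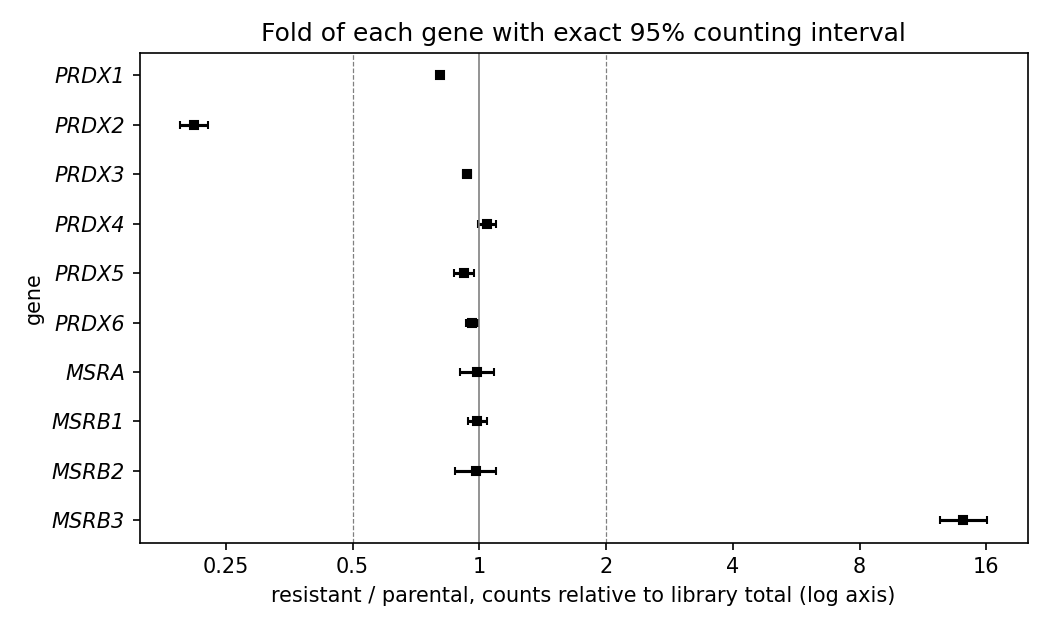
Fold of each of the 10 genes, resistant over parental, from counts relative to the library total (log axis), with its exact 95% interval for counting error; 1 library each, dashed lines at 0.5 and 2. PRDX2 lies at 0.210 and MSRB3 at 14.1, and the other 8 lie between 0.807 and 1.04.

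The order of the peroxiredoxins by FPKM was PRDX1, PRDX3, PRDX6 and PRDX5 from the top in both libraries. At the bottom, PRDX4 (27.26 FPKM) stood above PRDX2 (5.88 FPKM) in resistant cells by 4.64 times, whereas PRDX2 (28.07 FPKM) stood slightly above PRDX4 (26.25 FPKM) in parental cells. Within the parental library the counting intervals of PRDX6 and PRDX5 overlapped (50.2 to 52.5 and 47.3 to 50.9 FPKM). No other neighbours in either order overlapped, although intervals of counting do not cover differences between genes in how well they are captured.

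Summed over the 6 genes, peroxiredoxin transcripts came to 413.17 FPKM in resistant cells, against 496.91 FPKM in parental cells, a ratio of 0.831. PRDX1 made up 50.7% of the sum in resistant and 52.4% in parental cells. PRDX2 made up 1.42% in resistant and 5.65% in parental cells. In FPKM the difference of PRDX1 (-50.83) was larger than that of PRDX2 (-22.19), since PRDX1 is so much more abundant. PRDX1 was 35.6 times as abundant as PRDX2 in resistant cells and 9.28 times in parental cells.

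**Figure D4:**
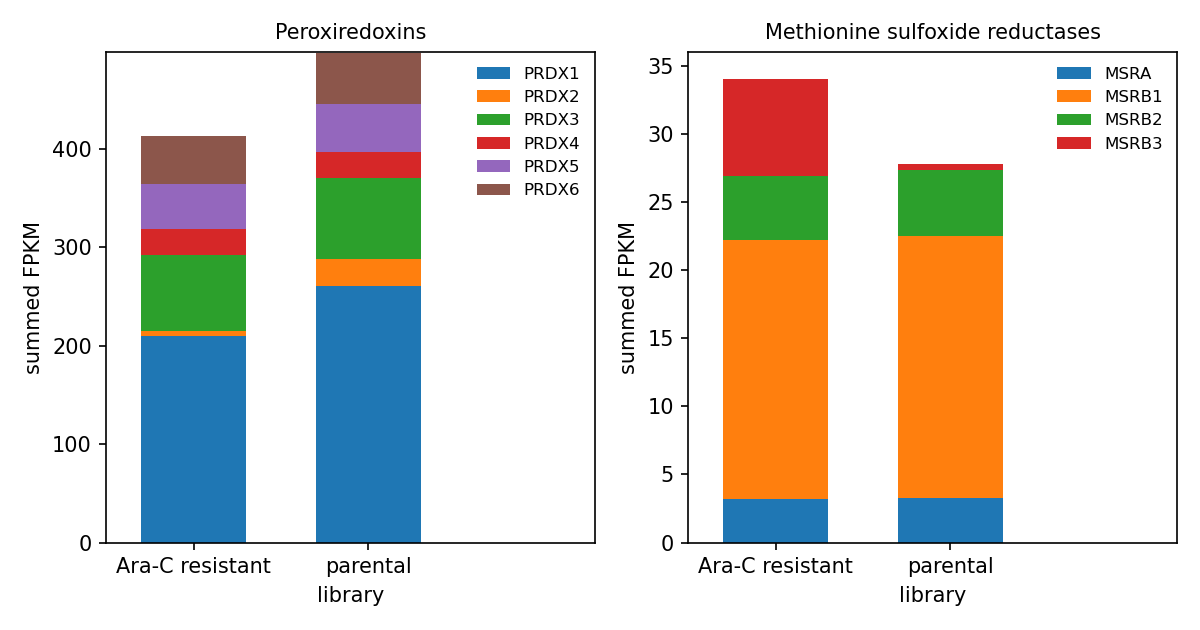
Summed FPKM of the 6 peroxiredoxins (left) and the 4 methionine sulfoxide reductases (right) in the Ara-C resistant and the parental library, 1 library each, with coloured segments for the genes. The peroxiredoxins sum to 413.17 FPKM in resistant cells, against 496.91 FPKM in parental cells, and the reductases to 34.04 FPKM in resistant cells and 27.82 FPKM in parental cells, where the MSRB3 segment is visible mainly in resistant cells.

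The methionine sulfoxide reductases were less abundant than the peroxiredoxins and, apart from MSRB3, nearly equal in the 2 libraries. The MSRB genes differ at the catalytic codon, shown in capitals within the coding stretch around it (5′ to 3′, GENCODE 29), since this is what tells the abundant MSRB1 from MSRB3.
MSRB1: cagtcccgattcTGAatattcagcagctcg
MSRB2: ggtcagaggtttTGCatcaacagtgtggct
MSRB3: gggaaaagatacTGCataaattcggctgcc
MSRB1 has TGA at codon 95, which is read as selenocysteine, while MSRB2 at codon 169 and MSRB3 at codon 158 of its longest annotated coding sequence have TGC for cysteine. MSRB3 matched MSRB2 at 65.7% and MSRB1 at 66.5% of aligned coding bases, and its longest exact run shared with MSRB1 was 13 bases and with MSRB2 12 bases.

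MSRB3, in which mutations cause a hereditary deafness, lies on chromosome 12 from 65278643 to 65491430 on the plus strand (GRCh38). It had 3587 counts in resistant cells, against 251 in parental cells. The fold was 14.1 (interval 12.4 to 16.1), and the log2 ratio of 2.43 was the 4th highest of the 11388 expressed genes. That log2 ratio understates the fold of counts because 1 FPKM is added to a parental level of 0.51 FPKM. The parental level lay below the minimum of 1 FPKM, so MSRB3 entered the set of expressed genes through the resistant library alone. Its forms for the endoplasmic reticulum and for mitochondria come from 1 gene, with 17 annotated transcripts in GENCODE 29, and the gene-level values do not separate them.

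The RefSeq window at the upstream start of MSRB3 held 27 CpG dinucleotides and 72.0% G or C, so it too was CpG rich, though less so than that of PRDX2. The bases upstream of every annotated start are shown as the counterpart of the PRDX2 stretch, chr12:65278433-65278642 (GRCh38, plus strand, 210 bases, from RefSeq), with CpG in capitals.
MSRB3: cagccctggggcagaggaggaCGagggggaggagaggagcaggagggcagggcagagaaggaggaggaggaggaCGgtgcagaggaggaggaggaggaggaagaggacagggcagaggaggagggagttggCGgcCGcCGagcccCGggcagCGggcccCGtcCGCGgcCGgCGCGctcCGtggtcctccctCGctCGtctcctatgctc
This stretch held 16 CpG dinucleotides, against 31 in the slightly shorter PRDX2 stretch. The core of the antioxidant response element, the site of the factor NRF2, was searched as TGACNNNGC on both strands of the 9 RefSeq windows found for 7 of the 10 genes. It was in 0 of the 9, and in 13.3% of all 35116 windows. This says only that these letters are not in these windows. PRDX1, PRDX6 and MSRA had no window and were not searched.

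The neighbours of MSRB3 also differed far less between the libraries than MSRB3 did. LEMD3, an inner nuclear membrane protein, was at 8.84 FPKM in resistant cells, against 8.21 FPKM in parental cells, and LLPH, on the other side, was at 6.40 (resistant) and 6.19 FPKM (parental). The log2 ratios of the 10 nearest expressed genes, which span 1939 kb, ran from -0.07 to 0.71 with a median of 0.05, and none was at least 2-fold apart. The highest of them was the pseudogene RBMS1P1, at 7.25 FPKM in resistant cells, against 4.06 FPKM in parental cells. The 2 genes with clone-based names that overlap MSRB3, AC026124 on its strand and AC025419 on the other, had 0 counts in resistant and in parental cells, where 0 counts leave room for up to 3 at a one-sided level of 95%.

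MSRB1, the selenoprotein of cytosol and nucleus (chromosome 16), was the most abundant reductase, at 18.96 FPKM in resistant cells, against 19.23 FPKM in parental cells (fold 0.989, 0.938 to 1.04). MSRB2, which is mitochondrial (chromosome 10), was at 4.73 FPKM in resistant cells, against 4.83 FPKM in parental cells (fold 0.981, 0.877 to 1.10). MSRA, the single enzyme for the S form (chromosome 8), was at 3.21 FPKM in resistant cells, against 3.25 FPKM in parental cells (fold 0.989, 0.901 to 1.09). For these 3 genes the intervals held equal levels, and their bounds reached 0.877 at the lowest and 1.10 at the highest.

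The 4 reductases summed to 34.04 FPKM in resistant cells, against 27.82 FPKM in parental cells. Without MSRB3 the sums were 26.90 FPKM in resistant cells and 27.31 FPKM in parental cells. MSRB3 made up 21.0% of the sum in resistant and 1.83% in parental cells, while MSRB1 made up 55.7% in resistant and 69.1% in parental cells. In resistant cells MSRB3 was 1.51 times as abundant as MSRB2. In parental cells MSRB2 was 9.47 times as abundant as MSRB3. MSRB3 thus ranked second of the 4 in resistant cells, behind MSRB1, and last in parental cells.

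Related redox, selenoprotein and methionine pathways were followed in 8 further lists with 83 genes, of which 73 were expressed. By the 2-fold rule, 0 of these 73 were higher and 1 was lower, against 0.632% and 1.23% of all expressed genes. At 1.5-fold, 8 of the 73 (11.0%) were apart, against 7.7% of all expressed genes, and the median log2 ratio of the 73 was -0.02. These counts depend on the 1 FPKM added to each level. With 0.1 FPKM added instead, 6 of the 73 were at least 2-fold apart, against 592 of all expressed genes.

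The thioredoxin system that recharges these enzymes was mostly level. Of its 10 genes, all expressed, 1 was higher and 1 lower by 1.5-fold or more. TXNIP, which binds and inhibits thioredoxin, was at 46.73 FPKM in resistant cells, against 25.62 FPKM in parental cells (fold 1.83, 1.77 to 1.89). TXNRD3, a thioredoxin reductase with a glutaredoxin domain, was at 1.22 FPKM in resistant cells, against 2.75 FPKM in parental cells (fold 0.445, 0.382 to 0.518). SESN2, a stress-induced sestrin, was at 3.17 (resistant) and 2.48 FPKM (parental). A few direct partners of the peroxiredoxins were added after their values were seen. Thioredoxin itself, TXN, was at 154.39 FPKM in resistant cells, against 151.24 FPKM in parental cells, its reductase TXNRD1 at 30.18 (resistant) and 31.61 FPKM (parental), and SRXN1, the sulfiredoxin that repairs overoxidised peroxiredoxins, at 10.98 (resistant) and 10.81 FPKM (parental).

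Among 9 expressed genes of oxidative protein folding in the endoplasmic reticulum, where PRDX4 and MSRB3 can act, ERO1B was the 1 gene of the 73 past the 2-fold rule. ERO1B, an oxidase that makes peroxide while it reoxidises protein disulfide isomerase, was at 0.75 FPKM in resistant cells, against 2.72 FPKM in parental cells (fold 0.280, 0.245 to 0.318). The sulfhydryl oxidases were higher in resistant cells, QSOX2 at 24.14 (resistant) against 11.90 FPKM (parental) (fold 2.03, 1.95 to 2.12) and QSOX1 at 36.21 (resistant) against 21.54 FPKM (parental) (fold 1.69, 1.65 to 1.72). The median of the list was -0.09.

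The NADPH oxidase of phagocytes, a source of superoxide, was measured through 7 expressed genes with a median log2 ratio of 0.21, of which 2 were at least 1.5-fold higher. CYBB, its catalytic subunit, was at 3.49 FPKM in resistant cells, against 1.57 FPKM in parental cells (fold 2.23, 1.99 to 2.49). NCF1, a cytosolic subunit, was at 1.91 FPKM in resistant cells, against 0.79 FPKM in parental cells (fold 2.40, 2.02 to 2.86), and it has near-identical copies in the genome that could share its reads. The GTPase RAC2 was at 96.88 FPKM in resistant cells, against 79.21 FPKM in parental cells.

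Other enzymes that remove peroxide or superoxide, 7 of them expressed, had a median of -0.12 and 0 past 1.5-fold. GPX8, a peroxidase of the endoplasmic reticulum, was at 0.45 FPKM in resistant cells, against 1.02 FPKM in parental cells (fold 0.438, 0.351 to 0.543), a low level at which adding 1 FPKM hides most of the ratio. SOD2, the mitochondrial superoxide dismutase, was at 5.28 (resistant) and 4.18 FPKM (parental) and GPX7 at 13.68 (resistant) and 15.43 FPKM (parental). The 9 glutaredoxin and glutathione genes had a median of -0.11 and 0 past 1.5-fold, with glutathione reductase GSR at 29.50 (resistant) and 22.61 FPKM (parental), GCLM at 8.45 (resistant) and 11.19 FPKM (parental), and GSTP1, the partner of PRDX6, at 86.07 (resistant) and 103.43 FPKM (parental).

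The 8 genes of the methionine cycle and of MICAL, an enzyme family that oxidises actin methionines which MSRB enzymes reduce again, were level, with 0 past 1.5-fold and a median of -0.02. MAT2A, which makes S-adenosylmethionine, was at 80.97 FPKM in resistant cells, against 87.58 FPKM in parental cells, MICAL3 at 1.88 (resistant) and 1.70 FPKM (parental), and MAT2B at 10.39 (resistant) and 9.94 FPKM (parental). Of 13 expressed selenoprotein and selenocysteine genes, on which MSRB1 depends, 1 was at least 1.5-fold lower and the median was 0.01. This was SEPSECS, which makes selenocysteine on its tRNA, at 1.35 FPKM in resistant cells, against 2.53 FPKM in parental cells (fold 0.535, 0.483 to 0.593). SEPHS2, which makes the selenium donor, was at 63.30 (resistant) and 79.40 FPKM (parental), and SELENOO at 5.84 (resistant) and 7.54 FPKM (parental). Of 10 genes of NRF2 and its targets, 0 were past 1.5-fold and the median was 0.04, with the cystine transporter SLC7A11 at 10.03 (resistant) and 6.72 FPKM (parental), NQO1 at 29.87 (resistant) and 21.94 FPKM (parental), and HMOX1 at 1.58 (resistant) and 1.12 FPKM (parental).

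**Figure D5:**
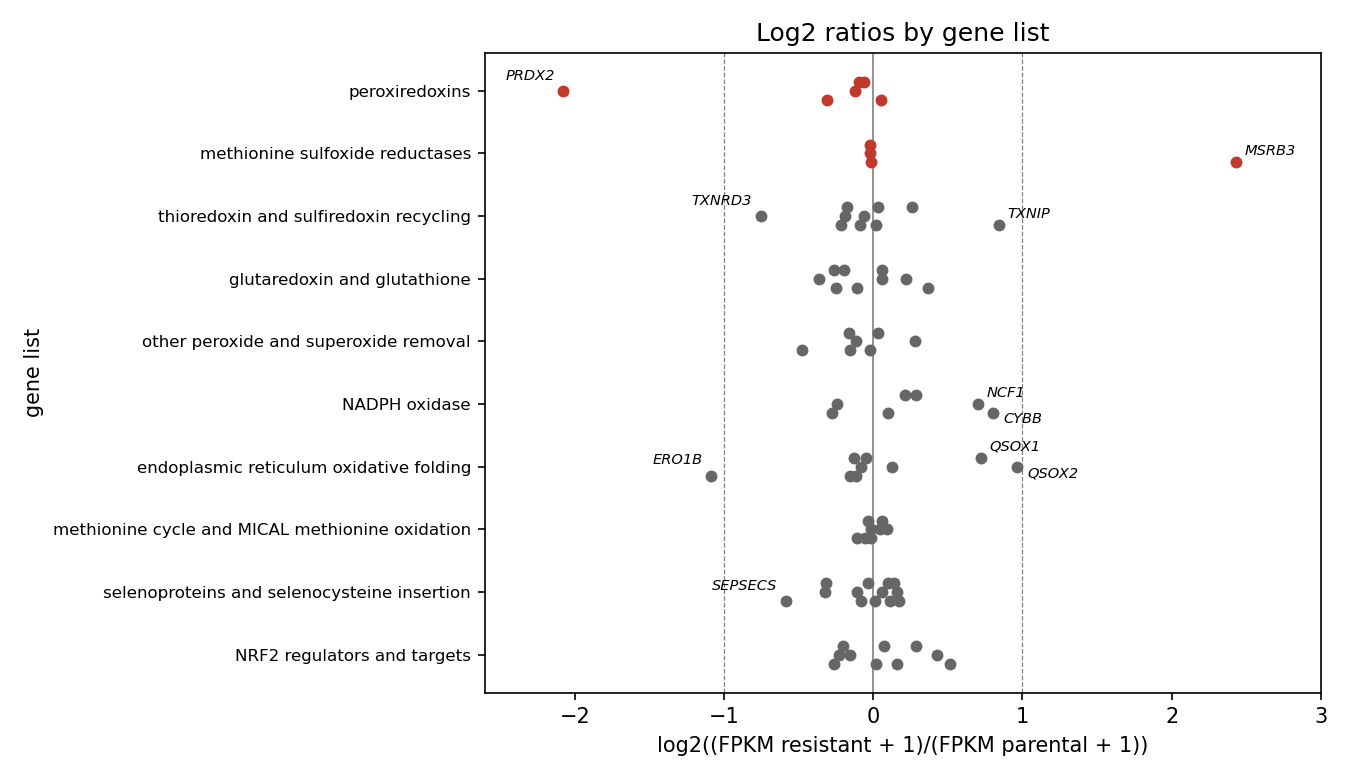
Log2 ratio of FPKM + 1, resistant over parental, of each expressed gene (points; 1 library each) in the 2 families (red) and 8 related lists (grey), with names for genes at least 1.5-fold apart and dashed lines at -1 and 1. PRDX2 at -2.08 and MSRB3 at 2.43 lie outside the range of the grey points, in which ERO1B at -1.09 and QSOX2 at 0.96 are the extremes. The families were chosen by the ratios of PRDX2 and MSRB3, so their place outside that range follows from the choice.

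Markers of the cells were measured beside these genes. Of the 8 monocytic markers, 7 reached 1 FPKM, and the summed level of all 8 was 321.15 FPKM in resistant cells, against 458.6 FPKM in parental cells. Most of that difference was lysozyme, LYZ, at 95.77 FPKM in resistant cells, against 225.01 FPKM in parental cells. The 7 markers other than LYZ summed to 225.38 FPKM in resistant cells and 233.59 FPKM in parental cells. The lineage factors SPI1 and CEBPA had log2 ratios of -0.05 and 0.02, and the surface markers CD33 and ITGAM of -0.09 and -0.13. CSF1R was at 7.74 FPKM in resistant cells, against 12.16 FPKM in parental cells, and MPO at 0.94 (resistant) and 2.81 FPKM (parental). The marker under 1 FPKM in both libraries was CD14, at 0.03 FPKM in resistant cells, against 0.50 FPKM in parental cells. Of the erythroid markers, 1 was measured, the factor KLF1, and it was listed at 0 in both libraries. The fibroblast and muscle markers summed to 0.38 FPKM in resistant cells, against 0.26 FPKM in parental cells, the epithelial ones to 0.30 (resistant) and 0.15 (parental), the B and plasma cell ones to 1.10 (resistant) and 1.05 (parental), and the megakaryocyte ones to 0.73 (resistant) and 1.87 (parental). The T and NK list came to 5.98 FPKM in resistant cells and 5.48 FPKM in parental cells, nearly all of it NCAM1, which was at 5.98 FPKM in resistant cells, against 5.47 FPKM in parental cells. The part of the lower LYZ, CSF1R, MPO and CD14 levels in the values of PRDX2 and MSRB3 was not tested.

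Among protein-coding genes ordered by log2 ratio, those next to PRDX2 (-2.08) were the read-through gene C8orf44-SGK3 and the metallothionein MT1G below it, and WLS and NAP1L5 above it. C8orf44-SGK3 was at 0.73 FPKM in resistant cells, against 7.75 FPKM in parental cells, MT1G at 0 (resistant) and 3.98 FPKM (parental), WLS, a carrier of Wnt proteins, at 0.14 (resistant) and 3.73 FPKM (parental), and NAP1L5 at 0.64 (resistant) and 5.48 FPKM (parental). Those next to MSRB3 (2.43) were EVA1B and MS4A6A below it and ORM1, an acute-phase plasma protein, and IFI27, an interferon-induced gene, above it. EVA1B was at 5.56 FPKM in resistant cells, against 0.27 FPKM in parental cells, MS4A6A at 22.20 (resistant) and 3.49 FPKM (parental), ORM1 at 4.74 (resistant) and 0 FPKM (parental), and IFI27 at 6.64 (resistant) and 0.33 FPKM (parental). Likeness here is the log2 ratio over 2 libraries. PRDX2 was, at 28.07 FPKM, the most abundant in parental cells of these 10 genes.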

How the data were processed

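Poly(A) RNA was measured in 1 resistant and 1 parental THP1 library, sequenced as read pairs. Per the file headers, the authors deposited FPKM values, normalised to transcript length and library size, and whole-number read counts per gene, not normalised. The submitters' processing notes name the build GRCh38 and, without a role or an order, the tools StringTie 1.3.4d, HISAT2 2.0.4, cutadapt 1.9, edgeR and DESeq2. The count column of the resistant library carries a suffix that no label explains; over 6022 well covered genes its log2 ratios and those of the FPKM differed by a constant (median -0.025, SD 0.00088). Both columns were therefore read as the same library.

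Rows with clone-based names were left out, and genes entered when they reached 1 FPKM in at least 1 library (11388 genes). No test was run, since each group has 1 library; intervals treat read pairs as independent molecules and cover counting error only. The ratio, the intervals and the size rule were tried on simulated counts with counting error alone, the error the intervals assume. This checked the calculation and could not cover differences between libraries of the same state. The members and gene lists were chosen with earlier results of these data known. Named genes were the 10 members, the 3 genes of each further list with the largest absolute log2 ratio, the nearest expressed neighbours, and the 2 coding genes on each side of a called member in order of ratio. Marker genes, overlapping genes, DNASE2, RBMS1P1, HELB, TXN, TXNRD1 and SRXN1 are named outside this rule. Promoter windows are from RefSeq (GRCh38.p14) and transcripts from GENCODE 29, whose members' ends lie within 1109 bases of the table's. A comparison of member proteins was planned but is not reported here. Alternatives changed the pseudocount, scaling, filter, size rule and locus sums. Scripts ran in Python 3.11.15 with scipy 1.17.1, pandas 2.3.3, numpy 2.4.6 and, for plots, matplotlib 3.10.9.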

Additional observations from a re-analysis of the deposited data

How the results depend on the processing

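PRDX2 stayed at least 2-fold lower and MSRB3 at least 2-fold higher in all 5 alternatives for pseudocount and scaling, and the count of 2 genes past the rule was 2 under every alternative filter, scaling, pseudocount and size rule. Over the same alternatives the count among all genes ran from 30 with 5 FPKM to 877 at 1.5-fold, against 212 as reported. The families were chosen by the ratios of PRDX2 and MSRB3, so the steady count is a description. Removing the filter or using the 1.5-fold rule could not take either of them out of the count. A minimum of 5 FPKM could not either, since PRDX2 reaches it in both libraries and MSRB3 in the resistant library. With reported log2 ratios of -2.08 and 2.43, the 3-fold rule and 0.1 FPKM could not take them out. Nor could scaling by the median ratio or the upper quartile, which shifts log2 ratios by 0.02 or 0.01. The sizes of the 2 ratios depended on the pseudocount. PRDX2 had a log2 ratio of -2.24 with 0.1 FPKM, -1.60 with 5 FPKM, -2.25 from counts with no pseudocount and -2.24 from counts summed with its pseudogene. MSRB3 had 3.57 with 0.1 FPKM, 1.14 with 5 FPKM, 3.54 from CPM with a pseudocount of 1, and 3.82 from counts with no pseudocount, since its level in parental cells is low. The sum with genes that overlap on the same strand added 0 counts to either gene, and that with pseudogenes added 0 to MSRB3, so these sums could not change them. The other 8 genes moved by less than their counting interval. Scaling by the median ratio or the upper quartile shifted all log2 ratios by 0.02 or 0.01, and over the alternatives MSRA and MSRB1 changed sign around 0. With a minimum of 5 FPKM the median of the reductases was 1.21, as only MSRB1 and MSRB3 remained. The summed level of the peroxiredoxins was 0.845 of parental by counts, and that of the reductases 1.71 by counts against 1.22 by FPKM, as counts weight long transcripts. Of the genes in the further lists, 6 were at least 2-fold apart with 0.1 FPKM, 0 with 5 FPKM and 0 with a minimum of 5 FPKM, and of all genes 592, 30 and 89 were. No paired analysis was possible because each group has 1 library. Among the 10 genes, depth limits MSRB3 in parental cells most, at 251 counts.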
